A study of Arabidopsis thaliana with 4 samples.

Results

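The genes described here encode ribosomal proteins of Arabidopsis thaliana, or are annotated as doing so. They are the gene probes of the array whose deposited Description contains the words "ribosomal protein", taken once per locus, and they number 292 of 21500. Within them, 135 genes carry 40S or 60S in the Description (55 and 80 genes) and are called the cytosolic class. Another 34 carry 30S, 50S or chloroplast and are called organelle-type, because the first 2 of these words do not say which organelle a protein works in. The remaining 123 carry none of the 5 words.

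Ribosomes of plant cells come in several kinds. The 80S ribosome of the cytosol, built of a 40S and a 60S subunit, makes most proteins, and several nuclear genes usually encode each of its proteins. Chloroplasts and mitochondria keep ribosomes of bacterial type. The chloroplast's has a 30S and a 50S subunit and translates the photosynthesis proteins encoded in plastid DNA. Most proteins of the chloroplast ribosome are encoded in the nucleus, made in the cytosol and imported. In Arabidopsis, many genes for cytosolic ribosomal proteins are regulated together with growth, partly through the TOR kinase pathway.

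RNA came from rosette leaves of 3-week-old plants of ecotype Col-0. OX17 and OX7 are independent T1 transformants, the first transgenic generation, each expressing TaSK5 from the 35S promoter, a promoter of viral origin that works in most tissues of a plant. The kinase TaSK5 belongs to the GSK3/Shaggy-like family and comes from wheat. The wild type is Col-0 without the transgene, and no group was treated. RNA of each transformant was hybridised with wild-type RNA on 2 two-colour Agilent arrays with exchanged dyes. On array 1 the transformant carried Cy5, and on array 2 it carried Cy3. The 2 arrays of a transformant hold repeat measurements of 1 plant's RNA, so n = 2 transformants for the comparison of TaSK5 with wild type. Whether the same wild-type RNA served both transformants is not stated in the labels. All values below are log2 ratios of TaSK5 over wild type unless another quantity is named, and a negative value means a lower signal in the TaSK5 plant.

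Among the 292 genes, 278 passed the filter on dim probes, which required a spot to stand well above background in every TaSK5 channel or in every wild-type channel. They were 54 of 55 genes with 40S, 76 of 80 with 60S, 32 of 34 organelle-type genes and 116 of 123 without a class word. The 14 others include RPL12-B (AT3G27840) and AT2G03130 of the organelle-type class. None of the 278 had a saturated spot, and 10 lacked a usable spot on at least 1 array. RefSeq annotates 9 of the 292 as pseudogenes. Probes of near-identical paralogs can bind each other's RNA, so ratios of single paralogs are uncertain.

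In OX17 the median ratio of organelle-type ribosomal protein genes was below 0, with 22 of 32 genes lower than wild type and 10 higher. In OX7 the counts were also 22 lower and 10 higher, so direction alone does not set the transformants apart. Over all genes kept, 9795 were lower and 9066 higher in OX17, and 9553 lower and 9311 higher in OX7. The median of the cytosolic class lay near 0 in both transformants. The cytosolic class had a median log2 ratio of 0.08 in OX17, and the organelle-type class a median of -0.80, which is 1.74-fold lower than wild type. In OX7 the medians were 0.02 for the cytosolic class and -0.06 for the organelle-type class. With arrays centred on their median in place of loess, the OX7 organelle-type median was -0.25 and the cytosolic median over both transformants turned to -0.04. The OX7 cytosolic median minus the organelle-type median was 0.07 to 0.11 under the alternatives that kept all arrays. On single arrays, the cytosolic medians were 0.12 and 0.05 on the OX17 arrays, and 0.09 and -0.03 on the OX7 arrays. The organelle-type medians were -0.78 and -0.71 on the OX17 arrays, and -0.04 and -0.07 on the OX7 arrays. The low organelle-type medians thus stood on both dye orientations of OX17 and on neither array of OX7. The median over all 18871 genes kept was -0.01 in OX17 and 0.00 in OX7.

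**Figure D1:**
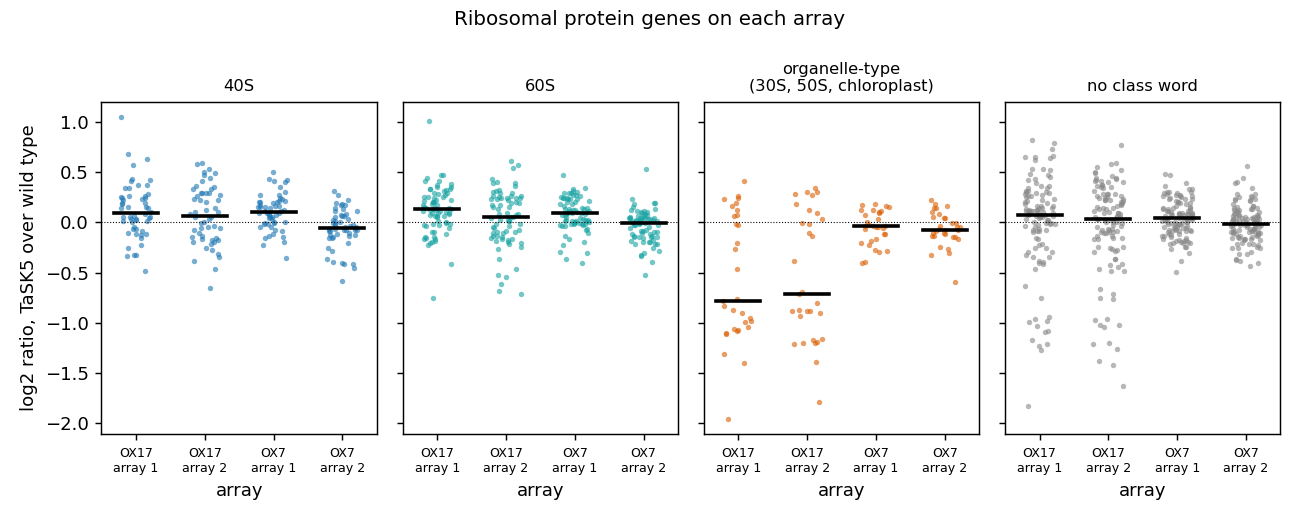
Log2 ratio of TaSK5 over wild type (vertical axis) for each ribosomal protein gene kept, by array (horizontal axis) and class (panels); points are genes and black bars are medians. The organelle-type medians are -0.78 and -0.71 on the OX17 arrays and -0.04 and -0.07 on the OX7 arrays, while the 40S and 60S medians stay between -0.06 and 0.13 on all 4 arrays.

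The cytosolic median minus the organelle-type median was 0.88 in OX17 and 0.08 in OX7. By array it was 0.90 and 0.76 for OX17, and 0.14 and 0.04 for OX7. Over both transformants the cytosolic median of mean log2 ratios was 0.05, and the organelle-type median was -0.46. Their difference of 0.50 therefore averages 2 transformants that were far apart. The organelle-type medians of the transformants had an SD of 0.52 (n = 2), larger than the size of their mean, and the cytosolic medians an SD of 0.04.

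No ribosomal protein gene passed the test of TaSK5 against wild type over both transformants (limma, Benjamini-Hochberg adjusted p under 0.05). Of all 18854 genes tested, 0 passed, which is 0.0%, and 825 had an unadjusted p under 0.05. The smallest adjusted p was 0.846 over all genes and also among the ribosomal protein genes. In simulated data for this comparison, 0 of 500 genes changed 2-fold were called, and 24.6% of those changed 4-fold. Changes of the size seen here were thus not detectable with 2 transformants. Counts of direction give a description. Among genes measured on all 4 arrays, 12.4% were higher on all 4 and 12.2% were lower on all 4. In the cytosolic class, 22 of 125 genes were higher on all 4 arrays and 8 were lower. In the organelle-type class, 0 of 29 were higher on all 4 and 9 were lower. Among genes without a class word, 21 of 114 were higher on all 4 and 13 were lower.

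The lowest organelle-type gene was RPL15 (AT3G25920), which encodes protein L15 of the large subunit of the chloroplast ribosome. Its log2 ratio was -1.96 and -1.79 on the OX17 arrays, against -0.04 and -0.15 on the OX7 arrays. Its mean over transformants was -0.98 ± 1.26 (SD, n = 2; limma adjusted p = 0.846). The OX17 arrays lay far below the OX7 arrays, with no overlap. RPL21C (AT1G35680), annotated as large-subunit protein L21 of the chloroplast, was at -1.40 and -1.20 on the OX17 arrays, and at 0.07 and 0.04 on the OX7 arrays. EMB3113 (AT2G33800), annotated as small-subunit protein S5, was at -1.10 and -1.39 in OX17, and at 0.10 and 0.04 in OX7. For both genes every OX17 array was below 0 and every OX7 array slightly above it.

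Plastid-specific ribosomal proteins have no counterpart in the ribosomes of most bacteria. PSRP5 (AT3G56910) was at -1.31 and -1.20 on the OX17 arrays and at -0.11 on the OX7 array that gave a usable spot. PSRP4 (AT2G38140) was at -1.06 and -1.17 on the OX17 arrays, and at -0.07 and -0.08 on the OX7 arrays. PSRP6 (AT5G17870), which has no class word, was at -0.94 and -0.75 on the OX17 arrays, and at -0.09 and 0.03 on the OX7 arrays. PSRP3/2 (AT5G15760), also without a class word, had means of -0.05 in OX17 and -0.03 in OX7. So 3 of these 4 genes were low in OX17, and PSRP3/2 was near 0 in both transformants. RPL9 (AT3G44890), the gene of chloroplast protein L9, was below 0 on all 4 arrays, at -1.07 and -0.88 in OX17 and at -0.39 and -0.14 in OX7. Its mean was -0.62 ± 0.50 (SD, n = 2). With RPL15, PSRP5 and RPL21C it made up the 4 lowest means of the class, and the PSRP5 value for OX7 rests on 1 array.

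Genes of both subunits were among the low ones. Over all genes kept, 9.05% had an OX17 mean below -0.5. The 9 genes with 30S had a median of -0.94 in OX17 and -0.04 in OX7, and 5 of them were below -0.5 in OX17. The 20 kept genes with 50S had medians of -0.35 in OX17 and -0.04 in OX7, with 9 below -0.5 in OX17. The small-subunit gene PRPS20 (AT3G15190) had an OX17 mean of -0.94. Large-subunit genes PRPL35 (AT2G24090) and RPL12-A (AT3G27830) had OX17 means of -1.12 and -1.07. Protein L12 forms the stalk that recruits translation factors.

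Within the class, OX17 values fell into a low and a near-zero set, parted at -0.5, a value chosen after the order was seen. There were 17 genes between -1.87 and -0.73 in OX17, with a median of -0.99, and 15 genes between -0.44 and 0.25, with a median of 0.03. The highest of the low set was RPL27 (AT5G40950) at -0.73, and the lowest of the other set was AT5G51610, annotated as L11-like, at -0.44. The step between them was 0.29. Only the step between RPL15 and the next gene was wider, at 0.57. In OX7 the low set had a median of -0.07 and the other a median of -0.02, so OX7 did not show the split. The sets differed in brightness too. Median log2 signals of the low set were 11.8 and 11.9 in the wild-type channels of the OX17 arrays, and those of the near-zero set were 7.68 and 7.87. Dim spots have shrunken ratios after background correction, and the part of brightness in the split was not tested.

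**Figure D2:**
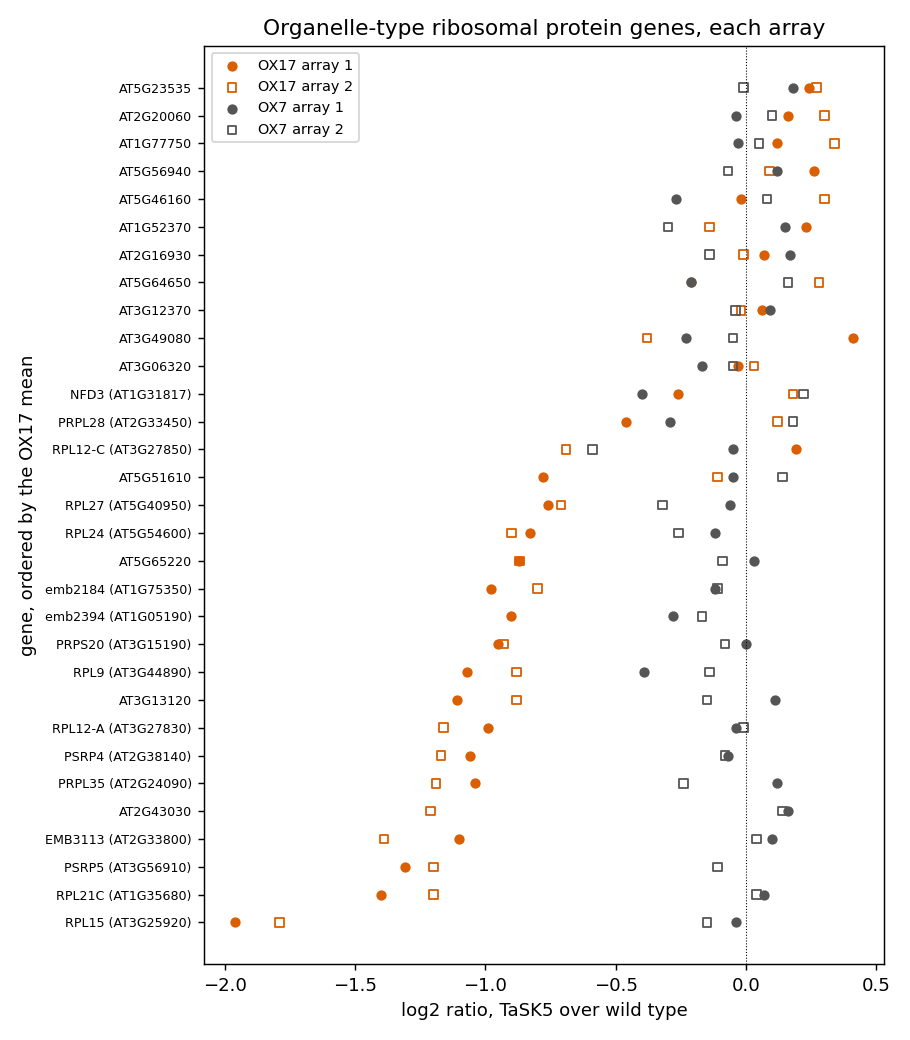
Log2 ratio of TaSK5 over wild type (horizontal axis) of 31 of the 32 organelle-type genes kept, ordered by their OX17 mean, on each array; filled symbols are array 1, open squares array 2, orange OX17 and grey OX7. In the 16 lowest genes drawn every orange symbol lies left of every grey one, and the OX17 means of the other 15 run between -0.44 and 0.25. Because the order is that of the OX17 means, low orange symbols in the 16 are largely set by it.

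Annotation words gave a related grouping, added after the values were seen. Of the 32 genes, 14 have the word chloroplast or plastid in the Description or in the RefSeq symbol or synonyms, and 11 of these 14 were in the low set. Of the 18 others, 6 were. The medians were -0.96 in OX17 and -0.09 in OX7 for the 14 genes, and -0.02 in OX17 and -0.02 in OX7 for the 18. The 3 annotated exceptions were PRPL28 (AT2G33450), AT1G52370, annotated as L22, and AT5G23535, annotated as similar to chloroplast L24. PRPL28 was at -0.46 and 0.12 on the OX17 arrays, and AT1G52370 at 0.23 and -0.14, so their OX17 arrays disagreed in sign. AT5G23535 was the highest mean of the class, at 0.24 and 0.27 on the OX17 arrays and at 0.18 and -0.01 on the OX7 arrays. The other high means were those of AT2G20060 (L4, mean 0.13), AT1G77750 (S13, mean 0.12) and AT5G56940 (S16, mean 0.10), none of them named for the chloroplast.

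Genes with the same protein name could differ widely. Among names shared by at least 2 kept genes within a class, L24 of the organelle-type class had the widest range of mean log2 ratio, at 0.70. RPL24 (AT5G54600), annotated as chloroplast L24, was at -0.83 and -0.90 on the OX17 arrays and at -0.12 and -0.26 on the OX7 arrays. Its namesake AT5G23535 was above 0 on both OX17 arrays. For L27, RPL27 was at -0.76 and -0.71 on the OX17 arrays, while AT2G16930 was at 0.07 and -0.01. For L12, RPL12-A was at -0.99 and -1.16 on the OX17 arrays, while RPL12-C (AT3G27850) was at 0.19 and -0.69. The sign of RPL12-C followed the dye in OX17, and in OX7 it was at -0.05 and -0.59, so array 2 was the lower in both transformants.

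Low OX17 values also occurred among genes without a class word. Of the 116 kept, 14 were below -0.5 in OX17, between -1.73 and -0.71, and their OX7 median was -0.06. These 14 of 116 are a share near the 9.05% found over all genes kept. The 3 lowest means were those of AT1G29070, annotated as plastid L34, AT4G01310, annotated as L5, and AT3G54210, annotated as L17-like. AT1G29070 was at -1.83 and -1.63 on the OX17 arrays, and at 0.25 and -0.22 on the OX7 arrays. AT4G01310 was at -1.27 and -1.38 on the OX17 arrays, and at -0.24 and -0.22 on the OX7 arrays. AT3G54210 was at -1.08 and -1.21 on the OX17 arrays, and at -0.30 and -0.22 on the OX7 arrays. AT4G01310 and AT3G54210 were thus below 0 on all 4 arrays, and AT1G29070 was not. PRPL11 (AT1G32990), the L11 protein of plastid ribosomes, had means of -1.21 in OX17 and -0.07 in OX7, and AT1G64510, annotated as plastid S6, had means of -1.10 in OX17 and -0.21 in OX7. The whole group of 116 had medians of 0.06 in OX17 and 0.01 in OX7.

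Genes annotated as mitochondrial gave a contrast within the bacterial type of ribosomal protein. They were the 5 with a mitochondrial word in the Description or in the RefSeq symbol or synonyms, a match that can miss others. Their median was 0.09 in OX17 and -0.02 in OX7. RPS19 (AT5G47320), whose Description reads 40S but also names a mitochondrial precursor, was at 0.22 and 0.26 on the OX17 arrays, and at -0.12 and -0.08 on the OX7 arrays. RPS2 (AT3G03600) was at 0.48 and 0.14 on the OX17 arrays, and at -0.19 and -0.40 on the OX7 arrays. Both were above 0 on each OX17 array and below 0 on each OX7 array. The other 3, MRPL11 (AT4G35490), RPS14 (AT2G34520) and AT1G07830, had OX17 means of -0.06, 0.09 and -0.05. The 20 genes of any class with a plastid or chloroplast word had a median of -0.96 in OX17 and -0.07 in OX7. Of these, 17 were below 0 in OX17 and 16 in OX7, so the transformants differed in size more than in direction.

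Counts past a 2-fold limit were made on both arrays of a transformant. Over all genes, 2.04% were at least 2-fold lower than wild type on both OX17 arrays, 2.63% at least 2-fold higher on both, and 0.0963% at least 2-fold lower on both OX7 arrays. Among the ribosomal protein genes, 13 were at least 2-fold lower on both OX17 arrays. They were 6 organelle-type genes, 7 without a class word and 0 of the cytosolic class. None of the ribosomal protein genes was at least 2-fold higher on both OX17 arrays or 2-fold lower on both OX7 arrays, and 0 differed 2-fold the same way on all 4 arrays. Ratios of OX17 and OX7 were also set against each other. Over all genes, 3.12% were at least 2-fold lower in OX17 than in OX7 with no overlap of their arrays. Again 13 ribosomal protein genes met this, 6 of the organelle-type class and 7 without a class word. The difference between the transformants has no test, because each is 1 plant.

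**Figure D3:**
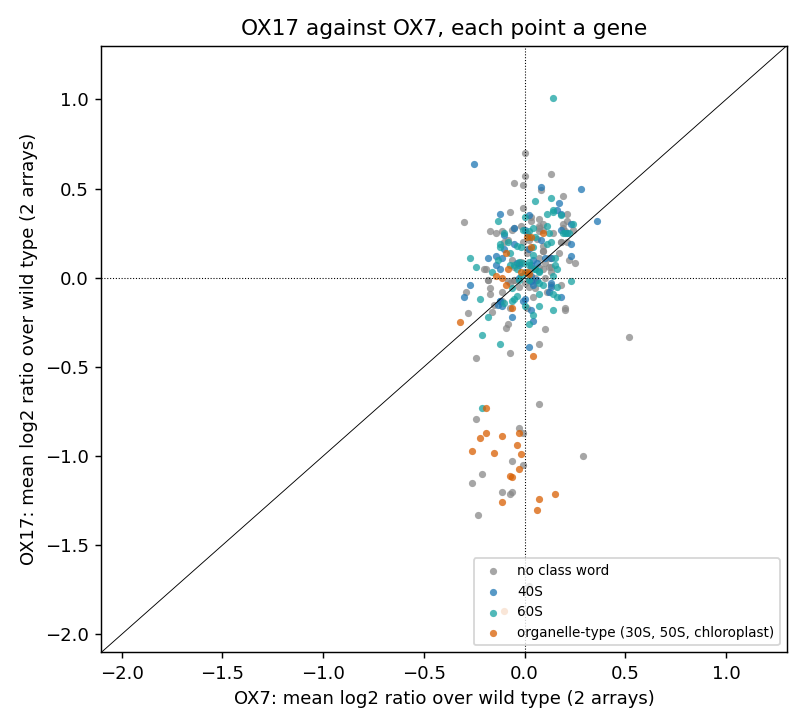
Mean log2 ratio over wild type in OX17 (vertical axis) against that in OX7 (horizontal axis), each point a ribosomal protein gene coloured by class, with the line of equal ratios. Of the organelle-type genes 17 of 32, and of the genes without a class word 14 of 116, lie between -1.87 and -0.71 in OX17 at OX7 ratios between -0.26 and 0.29, while most 40S and 60S genes gather around 0.

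Leaves of OX17 differed in other genes as well, and these are given beside the low organelle-type values. Of 77 other kept genes with chloroplast in the Description, 30 of 72 measured on all arrays were lower on all 4 and 3 were higher. Over all genes these shares were 12.2% lower and 12.4% higher. The medians of the 77 were -0.42 in OX17 and -0.08 in OX7. They include EMB3126 (AT3G63490), annotated as chloroplast ribosomal L1-like, at -0.51 in OX17 and -0.28 in OX7. Some of the 77 are also in the lists of translation genes below. CA1 (AT3G01500), a chloroplast carbonic anhydrase, was the lowest, at a mean of -2.31 in OX17 and -0.32 in OX7. Markers of senescing leaves were higher. The 6 genes had a median of 1.73 in OX17 and 0.37 in OX7, and 4 of 5 measured on all arrays were higher on all 4. ORE1 (AT5G39610), a NAC factor of leaf senescence, was at 3.08 and 3.05 on the OX17 arrays, and at 0.34 and 0.31 on the OX7 arrays. SAG12 (AT5G45890), a protease of late senescence, was at 0.18 and -0.03 on the OX17 arrays, and at 0.10 and -0.01 on the OX7 arrays. In SEN1 (AT4G35770) the order of the transformants was reversed, at 0.53 and 0.53 on the OX17 arrays and at 1.70 and 1.54 on the OX7 arrays. Of 5 leaf mesophyll markers, 3 were saturated on all 4 arrays and give no usable ratio. PSAL (AT4G12800), a photosystem I subunit, was at -0.59 and -0.41 on the OX17 arrays and at 0.26 and 0.12 on the OX7 arrays. CAB1 (AT1G29930), a light-harvesting chlorophyll-binding protein, was at -0.63 and -0.92 on the OX17 arrays and at 0.32 and 0.87 on the OX7 arrays. The part of these genes in the organelle-type result was not tested. In whole leaves, fewer cells of a type and less RNA per cell cannot be told apart.

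The 2 channels of each array show on which side the OX17 value lay. Signals of OX17 arrays minus signals of OX7 arrays were computed on the log2 scale between arrays of like dye orientation and then averaged. For the organelle-type class the median of this difference was -0.64 in the TaSK5 channel and -0.11 in the wild-type channel. For its 17 low genes it was -0.92 in the TaSK5 channel and -0.07 in the wild-type channel, and all 17 were lower in the TaSK5 channel. These 17 were chosen by their low ratios on the same OX17 arrays. Their lower TaSK5 signal is thus largely set by that choice and gives no support of its own. The wild-type signals of these genes thus stood close together on the arrays of both transformants. The cytosolic class differed by -0.23 in the TaSK5 channel and by -0.27 in the wild-type channel. Signals of the cytosolic class were therefore lower on the OX17 arrays in both channels, and this cancels in the ratio. Over all genes kept the medians were 0.00 in the TaSK5 channel and -0.02 in the wild-type channel. Each array was a slide of its own, so slide and transformant cannot be told apart in single channels.

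**Figure D4:**
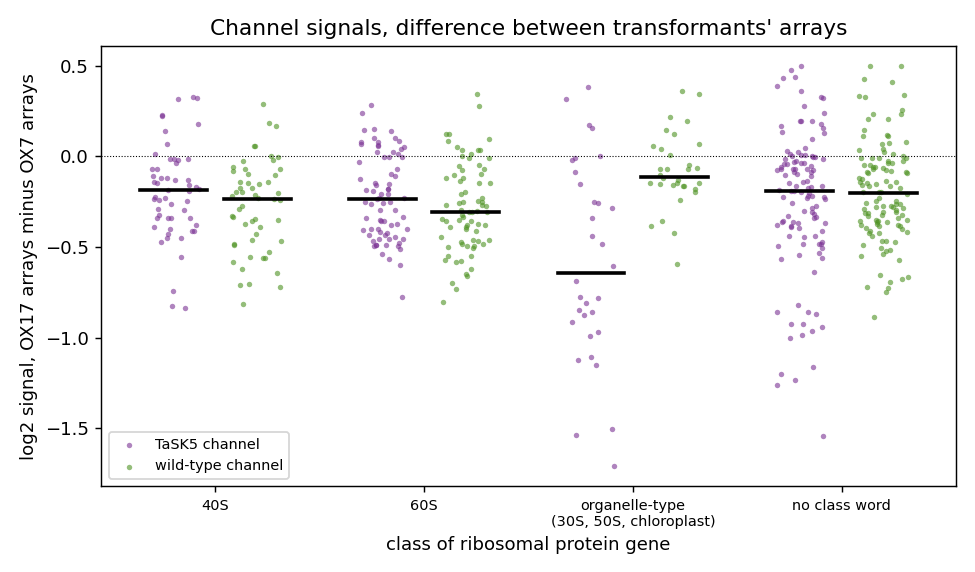
Difference in log2 signal between OX17 and OX7 arrays (vertical axis), averaged over dye orientations, for each ribosomal protein gene by class (horizontal axis); purple is the TaSK5 channel, green the wild-type channel and bars are medians. The organelle-type median is -0.64 in the TaSK5 channel and -0.11 in the wild-type channel, and the medians of the other classes are similar in both channels.

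Genes of the cytosolic class, which is set by the words 40S and 60S alone, varied little. The 54 genes with 40S had medians of 0.09 in OX17 and 0.03 in OX7, and the 76 with 60S had medians of 0.07 in OX17 and 0.02 in OX7. The middle 50% of the class lay between -0.05 and 0.24 in OX17 and between -0.06 and 0.13 in OX7. The typical gap between the 2 arrays of a transformant was 0.18 for a gene of this class in OX17 and 0.18 in OX7. Most single values were therefore of the size of the error between repeat arrays.

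Among the 4 highest means of 40S genes were those of AT3G53870, AT1G48830 and AT1G58983, and all 4 genes were above 0 on every array. AT3G53870 encodes S3, which sits where mRNA enters the small subunit. It was at 0.41 and 0.59 on the OX17 arrays and at 0.42 and 0.14 on the OX7 arrays, with a mean of 0.39 ± 0.16 (SD, n = 2; limma unadjusted p = 0.0467, adjusted p = 0.846). In all, 2 ribosomal protein genes had an unadjusted p under 0.05. AT1G48830 (S7) and AT1G58983 (S2) had means of 0.30 and 0.29. The lowest means of genes with 40S in the Description were between -0.20 and -0.14. They were those of AT1G58380 (S2), AT1G15930 (S12), RPS5A (AT3G11940), known for its role in embryo and leaf development, and RPS10 (AT3G22300). The sign of AT1G58380 followed the dye in OX17, at 0.43 on array 1 and -0.65 on array 2.

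Among 60S genes the highest mean was that of SAG24 (AT1G66580), an L10 gene named for its association with senescence. It was at 1.01 on the usable OX17 array and at 0.24 and 0.04 on the OX7 arrays. Its OX17 value rests on array 1 alone, and dye bias is not averaged out. AT1G18540 (L6), RPL18 (AT3G05590) and BBC1 (AT3G49010), an L13 gene, followed with means of 0.29, 0.27 and 0.26, and all 3 were above 0 on every array. The lowest 60S mean was that of AT3G28900, an L34 gene, at -0.75 and -0.71 on the OX17 arrays and at -0.11 and -0.32 on the OX7 arrays. It was the only gene of the cytosolic class below -0.5 in OX17. The next lowest were the L21 genes AT1G57660 and AT1G57860 and the L37a gene AT3G10950, with means of -0.26, -0.24 and -0.20.

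Differences between transformants without overlap of their arrays were largest in the 40S class for AT5G39850 (S9-like), P40 (AT1G72370), a gene of protein SA, and AT1G58983. AT5G39850 was at 1.05 and 0.23 on the OX17 arrays, and at -0.05 and -0.45 on the OX7 arrays, a difference of 0.89. The gap between its OX17 arrays was nearly as wide. P40 differed by 0.48 and AT1G58983 by 0.43. In the 60S class, among genes measured on all 4 arrays, they were AT3G28900, lower in OX17 by a difference of -0.51, and AT2G19740 (L31) and AT1G09590 (L21), higher in OX17 by 0.45 and 0.39. In the organelle-type class they were RPL15, RPL21C and EMB3113, with OX17 minus OX7 at -1.78, -1.36 and -1.32.

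Paralogs of the cytosolic class were compared by protein name. There were 36 protein names with at least 2 kept genes, covering 91 genes, and the median range of mean log2 ratio within a name was 0.15. The SD over all genes of the class was 0.15. A range within a name and an SD over the class are unlike measures, so they are not compared. The widest ranges were those of L34, L21 and S2, at 0.63, 0.50 and 0.50. In L34, AT3G28900 had a mean of -0.47, RPL34 (AT1G69620) a mean of 0.03 and AT1G26880 a mean of 0.16. Of the L21 genes, AT1G57660 and AT1G57860 were low, while AT1G09486, AT1G09690 and AT1G09590 had means of 0.05, 0.20 and 0.24. RefSeq annotates AT1G09486 as a transcribed pseudogene. Of the S2 genes, AT1G58380 had a mean of -0.20, AT2G41840 of 0.00, AT3G57490 of 0.12 and AT1G58983 of 0.29. The S5 pair and the SA pair were closest, each with a range of 0.02. RPS5A and RPS5B (AT2G37270) had means of -0.15 and -0.14, and P40 and RPSAb (AT3G04770) means of 0.12 and 0.10.

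Of genes without a class word, the highest means belonged to the L19 genes emb2386 (AT1G02780) and AT4G02230, and to RPL3B (AT1G61580), an L3 gene. The emb2386 values were 0.73 and 0.43 on the OX17 arrays, and 0.27 and -0.01 on the OX7 arrays. RPL3B was at 0.64 and 0.77 on the OX17 arrays, and at 0.02 and -0.03 on the OX7 arrays, and AT4G02230 was above 0 on all 4 arrays with a mean of 0.33. Acidic P proteins form the stalk of the cytosolic large subunit. The P2 gene AT3G28500 was at -0.40 and -0.25 on the OX17 arrays, against 0.47 and 0.56 on the OX7 arrays. The P1 gene AT4G00810 was at -0.39 and -0.36 on the OX17 arrays, against 0.07 and 0.07 on the OX7 arrays. In each the transformants had opposite signs on all arrays, as had 17.3% of all genes measured on all 4 arrays. Both genes were named after their values were seen. None of the other kept genes annotated as P2 had opposite signs on all arrays. Means in OX17 and OX7 were 0.06 and -0.24 for AT2G27710, and 0.05 and 0.05 for AT2G27720. Those of AT3G44590 were -0.19 and -0.16, and those of AT5G40040 were -0.08 and -0.11.

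The machinery that builds and serves ribosomes was read from gene lists. Ribosome biogenesis genes, which make and modify ribosomal RNA and assemble subunits in the nucleolus, had medians of 0.27 in OX17 and 0.14 in OX7 over 20 genes. Of these, 10 were higher on all 4 arrays and 0 were lower, against 12.4% and 12.2% of all genes. None of the 20 passed the limma test. The highest was NUC-L1 (AT1G48920), a nucleolin, at 0.57 and 0.72 on the OX17 arrays and at 0.16 and 0.50 on the OX7 arrays. Its mean was 0.49 ± 0.22 (SD, n = 2; limma adjusted p = 0.846). The lowest was PUM23 (AT1G72320), a pumilio protein of ribosomal RNA processing, with a mean of -0.14. FIB1 (AT5G52470) and FIB2 (AT4G25630), fibrillarins of ribosomal RNA methylation, had means of 0.37 and 0.28, and both were above 0 on all 4 arrays. The medians of this list lay above those of the cytosolic ribosomal protein genes in both transformants. That difference was not tested.

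In the TOR signalling list of 12 genes the medians were 0.08 in OX17 and 0.00 in OX7. On all 4 arrays, 3 of these genes were higher and 2 were lower, against 12.4% and 12.2% of all genes. The lowest was the S6 kinase gene PK1 (AT3G08730), also called S6K1, whose kinase phosphorylates ribosomal protein S6. It was at -1.22 and -0.98 on the OX17 arrays, and at -0.60 and -0.32 on the OX7 arrays, with a mean of -0.78 ± 0.45 (SD, n = 2; limma adjusted p = 0.846). Its paralog S6K2 (AT3G08720) had a mean of -0.01. The kinase gene TOR (AT1G50030) was at 0.06 and 0.32 on the OX17 arrays and at 0.19 and 0.18 on the OX7 arrays. The highest of the list was TAP46 (AT5G53000), a phosphatase regulator downstream of TOR, with a mean of 0.23.

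Factors of translation stayed near 0 as lists, but these lists mix factors of the cytosol and of organelles. Among their genes with chloroplast in the Description, FUG1 (AT1G17220) was at -0.55 in OX17 and 0.05 in OX7. RABE1b (AT4G20360) was at -0.53 in OX17 and -0.27 in OX7, and EDD1 (AT3G48110) at -0.32 in OX17 and 0.08 in OX7. The 46 translation initiation factor genes had medians of -0.03 in OX17 and -0.03 in OX7, with 3 higher and 10 lower on all 4 arrays. Over all genes, 12.4% were higher on all 4 arrays and 12.2% were lower. The 17 elongation factor genes had medians of 0.05 in OX17 and -0.05 in OX7, with 3 higher and 3 lower. The extremes of that list were AT1G07920, an elongation factor 1-alpha gene of cytosolic translation, with a mean of 0.34, and SCO1 (AT1G62750), an elongation factor G of chloroplasts, with a mean of -0.51. SCO1 was at -0.79 in OX17 and -0.22 in OX7. Initiation factor means ran between -0.37 for AT4G11175, an IF-1 gene, and 0.27 for AT4G30680. The 47 aminoacyl-tRNA synthetase genes had medians of -0.08 in OX17 and -0.02 in OX7, with 6 higher and 9 lower on all 4 arrays. Their lowest mean was -0.50, for the tryptophanyl-tRNA synthetase OVA4 (AT2G25840), which was at -1.10 in OX17 and 0.10 in OX7, and their highest was 0.24, for the threonyl-tRNA synthetase AT5G26830.

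Proteasome genes, which serve protein breakdown, had medians of 0.23 in OX17 and -0.04 in OX7 over 52 genes. On all 4 arrays, 4 of them were higher and 0 were lower, against 12.4% and 12.2% of all genes. Their highest mean was 0.40, for ATS9 (AT1G29150), a regulatory subunit, and their lowest was -0.17, for AT1G04810. Among other chloroplast genes the highest mean was 0.70, for Tic20-IV (AT4G03320), a component of protein import into chloroplasts.

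**Figure D5:**
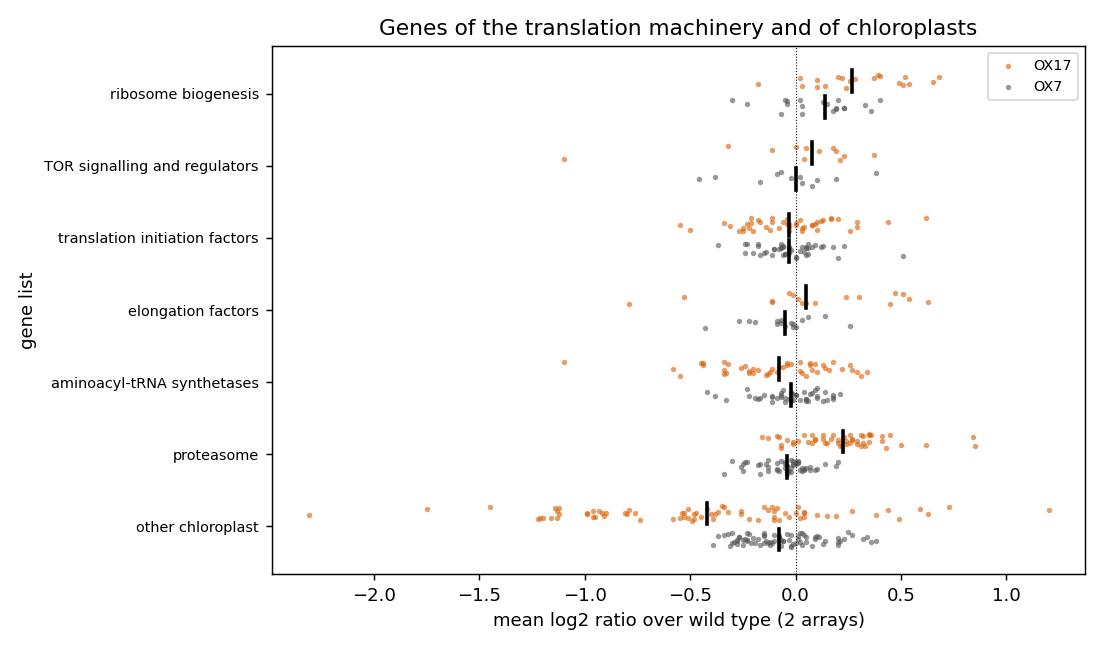
Mean log2 ratio over wild type (horizontal axis) of the genes of 7 lists (vertical axis) in OX17 (orange) and OX7 (grey); points are genes and bars are medians. Ribosome biogenesis medians are 0.27 and 0.14, proteasome medians 0.23 and -0.04, and other chloroplast medians -0.42 and -0.08, the OX17 value given first in each pair.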

How the data were processed

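Rosette-leaf RNA of TaSK5 transformants OX17 and OX7 was hybridised against wild-type RNA on 4 two-colour Agilent arrays with dye swaps. Per the file headers, the deposited scanner files give spot intensity and background intensity in both channels and a log10 ratio, Cy5 over Cy3, from the scanner program. The authors also deposited log2 ratios as a table. Their tool was limma, per the submitters' processing notes. How they corrected background and centred that table is not given in the sources used here. Against ratios computed here its columns correlated at r of 0.992 to 0.998 in the direction Cy5 over Cy3, with column medians of -0.00543 and 0.00486 for OX17 and of -0.00408 and 0.00358 for OX7.

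Here limma 3.58.1 (R 4.3.3) was run on the intensities, with normexp background correction (offset 50) and loess within each array (weight 0 for its 1075 control spots). Outlier spots (60 to 173 per array) were left out, and ratios were turned to TaSK5 over wild type. Between 86.4% and 95.9% of gene probes were well above background in TaSK5 channels, and between 88.9% and 96% in wild-type channels. The number of arrays limits the precision. Loess sets the typical ratio of each array to 0, so a common shift of most transcripts is invisible. Each transformant's 2 arrays were averaged, and these 2 means were tested against 0 (lmFit and eBayes, two-sided, Benjamini-Hochberg over 18854 genes). A gene with a flagged spot on 1 array takes the other array's value. The test was checked on simulated data. Replicate numbers stand for the dye orientation and pair no plants. Channel signals came from Aquantile normalisation.

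Members, classes and gene lists were chosen with earlier results of these data known. Class words were matched in any case. Class medians have no test. Named genes are, per class (40S, 60S, organelle-type), the 4 highest and 4 lowest means, the 3 largest differences between transformants without overlap of arrays, members changed 2-fold on all 4 arrays, and called members. The 4 protein names with the widest and the 2 with the narrowest range, 3 extremes on each side without a class word and the extremes of each list were added. A further 23 members, FIB1, FIB2, S6K2, TOR, FUG1, RABE1b, EDD1, EMB3126 and the marker genes with values were named after their values were seen. RefSeq names (assembly TAIR10.1) matched 291 of 292 members. Alternatives changed background, normalisation, filter, fit, arrays and class words. Groups of 2 allow no outlier test. No sequence is printed, and 2 members are counted in their classes but not reported here by name.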

Additional observations from a re-analysis of the deposited data

Results flagged for a closer look

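The transformants had opposite signs, on both arrays of each, for 29 of 268 ribosomal protein genes measured on all 4 arrays, 15 of them lower than wild type in OX17 and higher in OX7. That is 10.8% of them, against 17.3% of all genes measured on all 4 arrays, so the count does not set the ribosomal protein genes apart. None of these differences was tested. Among the genes named in the text there were 8. OX17 minus OX7 was -1.36 for RPL21C (AT1G35680), -1.32 for EMB3113 (AT2G33800) and -1.29 for RPS9 (AT1G74970), an S9 gene without a class word that was at -0.96 and -1.04 on the OX17 arrays and at 0.39 and 0.18 on the OX7 arrays. It was -0.84 for the P2 gene AT3G28500 and -0.44 for the P1 gene AT4G00810. Genes higher in OX17 than in wild type and lower in OX7 were AT5G39850 (S9-like), with a difference of 0.89, and the mitochondrial-annotated RPS2 (AT3G03600) and RPS19 (AT5G47320), with differences of 0.60 and 0.34.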

How the results depend on the processing

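The median of the organelle-type class stayed below 0 in OX17 and in OX7 under all alternatives run. Its OX17 median of -0.80 was -0.87 with a normexp offset of 0, -0.90 with Agilent's ratio, -0.67 with median centring, -0.59 with scaling between arrays, -0.59 without a filter on dim probes, -0.87 with probes well above background in both channels, -0.96 for members with a plastid word, and -0.80 to -0.71 leaving out arrays. The cytosolic minus organelle-type difference in OX17 was 1.00 with Agilent's ratio, 0.71 with median centring, 0.65 with scaling, 0.66 without the filter, 1.04 with the plastid word, and 0.76 to 0.90 leaving out arrays. The OX7 median was -0.08 with offset 0, -0.25 with median centring and -0.09 with the plastid word. The cytosolic minus organelle-type difference in OX7 was 0.04 to 0.14 leaving out arrays and 0.07 to 0.11 under the other alternatives. The cytosolic median of 0.05 was -0.04 with median centring, and 0.00 to 0.08 leaving out arrays. Alternatives on class words and on transformants were chosen after seeing the data.

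No gene was called except with 4 arrays taken as independent (79 genes, or 1 with the replicate block), where repeat arrays of a plant count as replicates. The replicate block follows the dye and pairs no plants.

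Of the named members, 11 turned sign when an array was left out. AT2G41840, at 0.00 with all arrays, took both signs, between -0.12 and 0.12. The 11 ranged between -0.47 and 0.07 for AT1G58380, -0.01 and 0.40 for AT5G39850, -0.43 and 0.04 for AT3G10950, -0.09 and 0.15 for RPL34, -0.02 and 0.12 for AT1G09486, -0.01 and 0.21 for RPSAb, -0.06 and 0.10 for AT2G16930, -0.26 and 0.03 for PRPL28, -0.13 and 0.10 for AT1G52370, -0.08 and 0.09 for RPS2 and -0.06 and 0.04 for MRPL11. With median centring P40 was at -0.02, AT2G19740 at -0.05, RPL34 at -0.17, AT1G09690 at -0.03, RPS19 at -0.05 and RPS14 at -0.09. With scaling RPL34 was at -0.03, RPS2 at -0.08 and MRPL11 at 0.02. AT2G16930 was at -0.03 with Agilent's ratio and -0.01 in the deposited table, and RPS2 at -0.01 there. The causes were not tested. With 2 transformants, each a single plant, differences between transformants and differences between plants cannot be told apart. Ratios of dim spots are shrunken.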
